A study of Rattus norvegicus with 6 samples.

Results

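The genes of the BAF chromatin remodeling complex and its Bcl7 subunits were examined in RNA-seq libraries of rat PC12 cells. The 10 genes were chosen by name, Bcl7a, Bcl7b, Bcl7c, Smarca4, Smarca2, Smarcb1, Smarcc1, Arid1a, Arid1b and Pbrm1, and each matched 1 row of the 20609 genes in the count table. Of these 10 genes, 9 had enough counts to be tested, and Smarcb1 did not. PC12 cells derive from a pheochromocytoma of the rat, that is, from chromaffin cells of the adrenal medulla that became a tumor. One group of 3 libraries came from PC12 cells given a control plasmid, and the other group of 3 from PC12 cells given a plasmid for PCBP-1 overexpression (PCBP1-OE), which carries PCBP-1 with an EGFP tag. PCBP-1 is an RNA-binding protein that binds C-rich RNA. Nothing in the labels says whether the 3 libraries of a group came from separate transfections, so the p-values measure the spread between these libraries, which may be technical. No row of the count table is named Pcbp1, so the overexpression was not checked here. The paper reports higher PCBP-1 RNA by RT-qPCR and higher PCBP-1 protein by western blot in the PCBP1-OE cells.

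BAF complexes, the mammalian SWI/SNF remodelers, use ATP to slide and eject nucleosomes and so open DNA at enhancers and promoters. Each complex holds 1 ATPase, Smarca4 (BRG1) or Smarca2 (BRM), on a scaffold of core subunits, and further subunits decide which of the canonical BAF, PBAF and noncanonical BAF forms is built. In the nervous system, subunits are exchanged as progenitors become neurons, and the Bcl7 proteins are small subunits that contact the nucleosome. Bcl7a was among the genes that the study measured by RT-qPCR. The paper reports an increase of Bcl7a RNA in PCBP1-OE cells by that method, in the same direction as its sequencing, and discusses Bcl7a as up-regulated.

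The libraries held between 19730209 and 22315623 counts on genes, and 12624 genes were tested. Counts of replicate libraries differed beyond counting noise in all 6 pairs (4.87 to 16.9 units of chi-square per gene). The defining markers of chromaffin cells were low. Of 7 such markers in the table, 5 had at most 9 counts in every library, among them Dbh, Chga, Chgb and Ddc, and Th, the rate-limiting enzyme of catecholamine synthesis, was at 6.85 to 8.86 CPM, the counts scaled to a common library size. Sox10, a transcription factor of glial and neural crest cells, was at 362 to 408 CPM, and Pdgfra, a receptor of fibroblasts and oligodendrocyte progenitors, at 195 to 226 CPM. The labelled cell line is therefore used here as a name only. The summed level of the 5 glial markers was 402 to 422 CPM with the control plasmid and 374 to 387 CPM under overexpression, and that of the 4 fibroblast markers found was 225 to 230 and 200 to 212 CPM. The 4 leukocyte markers found summed to 6.82 to 7.76 CPM with the control plasmid and 6.13 to 6.22 CPM under overexpression, and the 2 endothelial markers found to 0.268 to 0.383 and 0.227 to 0.545 CPM. Of the 10 markers tested, 0 passed edgeR's test (adjusted p of 0.0644 for Pdgfra and 0.0790 for Sox10), while DESeq2 called both, at 0.0424 and 0.0414, and edgeR called Pdgfra without control replicate 3, at 0.0345. The part of these shifts in the results below was not tested. In bulk RNA, fewer cells of a type and less RNA per cell cannot be told apart.

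The start regions of the members were read from RefSeq promoters of the assembly GRCr8, 250 bases before to 50 bases after the start of each gene. A promoter was found for 9 of the 10 members, and Bcl7a had none. The sequences of Pbrm1 and Bcl7c, the members that passed the test, and of Bcl7b, the paralog of Bcl7c that did not, are printed here, from chr16:6219683-6219982 (plus strand), chr1:191754592-191754891 (minus strand) and chr12:27146582-27146881 (minus strand). Capitals mark CACGTG, and GGGCGG on either strand.
Bcl7b: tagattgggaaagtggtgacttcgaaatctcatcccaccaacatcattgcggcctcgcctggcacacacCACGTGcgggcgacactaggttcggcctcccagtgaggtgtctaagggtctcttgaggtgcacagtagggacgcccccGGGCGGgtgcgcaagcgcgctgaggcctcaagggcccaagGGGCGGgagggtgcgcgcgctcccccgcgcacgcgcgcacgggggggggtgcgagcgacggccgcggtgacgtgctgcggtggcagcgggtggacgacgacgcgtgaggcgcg
Bcl7c: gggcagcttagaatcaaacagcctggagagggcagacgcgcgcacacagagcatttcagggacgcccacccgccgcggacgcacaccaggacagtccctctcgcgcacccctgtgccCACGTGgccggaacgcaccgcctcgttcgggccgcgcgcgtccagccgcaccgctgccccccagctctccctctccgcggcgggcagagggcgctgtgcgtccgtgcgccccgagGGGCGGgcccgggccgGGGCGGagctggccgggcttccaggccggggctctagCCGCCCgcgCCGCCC
Pbrm1: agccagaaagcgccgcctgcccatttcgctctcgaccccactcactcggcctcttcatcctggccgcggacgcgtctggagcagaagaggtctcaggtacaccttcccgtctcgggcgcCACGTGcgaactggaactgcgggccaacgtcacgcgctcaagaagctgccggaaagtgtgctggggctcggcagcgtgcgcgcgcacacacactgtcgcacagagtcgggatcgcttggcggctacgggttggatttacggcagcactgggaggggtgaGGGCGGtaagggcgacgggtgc
The motifs were chosen after the sequences had been seen. CACGTG, which reads the same on both strands, began at position -131 of Pbrm1, -133 of Bcl7c and -181 of Bcl7b, counted from the gene start, and was found in none of the other 6 promoters. Of all 33469 RefSeq promoters, 6.42% held CACGTG, and 9.13% of the 9886 promoters of tested genes. GGGCGG was found in 9 of 9 members, against 61.4% of the promoters of tested genes, and TATAAA in 0 of 9, against 6.89%. CCGGAA was found in 4 of 9, Bcl7c, Smarca2, Smarcc1 and Pbrm1, against 27.2%. The members' promoters had a median of 34 CG dinucleotides, with 24 in Smarcb1 and 44 in Arid1b at the ends of the range, and the median of tested genes was 21. The matches did not separate the member that rose from the member that fell, and they are descriptions of letters, not of binding.

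The primers that the study designed for Bcl7a are the other sequences tied to this family. They are given because the count-based values for Bcl7a below rest on few reads.
Bcl7a pair 1 forward: ctcatcagccttggcttc
Bcl7a pair 1 reverse: tgataacagcaaccagagc
Bcl7a pair 2 forward: cacttgtagattcgtagggatg
Bcl7a pair 2 reverse: gaaatgggtgaccgttgg
Their RT-qPCR values were not used here.

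The comparison of PCBP1-OE with control cells asked which of these subunits change in RNA level with PCBP-1 overexpression. Pbrm1 rose by 42.0% and Bcl7c fell by 13.3%, while the other 7 tested members did not pass the test. Pbrm1 (BAF180) is the polybromo subunit that defines PBAF, and Bcl7c is a Bcl7 subunit of the complex. Called members were thus 2 of 9 tested, 1 higher and 1 lower, where 9.45% of all tested genes were called, 4.45% higher and 5.0% lower. These are 562 genes higher and 631 lower, a split that upper-quartile scaling turned to 655 and 427, with Arid1b called in place of Bcl7c. A gene was called at an FDR of 0.05 or less by the quasi-likelihood test of edgeR, adjusted by Benjamini-Hochberg over all 12624 genes. No member was called with a change of 2-fold or more. The median log2 fold change of the 9 members was 0.13, and that of all tested genes 0.0029. In 5 of the 9, Bcl7a, Bcl7c, Arid1a, Arid1b and Pbrm1, the groups did not overlap in CPM, against 30.6% of all tested genes. Of these, Bcl7a was kept by the count filter through its PCBP1-OE libraries. Neither call among the members held in every fit with 1 library left out. In these fits the log2 fold change stayed between 0.43 and 0.62 for Pbrm1 and between -0.25 and -0.17 for Bcl7c. Whether calls were lost through particular libraries or through having fewer of them was not tested. Leaving out control replicate 1 or 2, or PCBP1-OE replicate 2 or 3, left 0 called members by edgeR (5, 4, 4 and 5 at an unadjusted p under 0.05), leaving out PCBP1-OE replicate 1 left 1, and leaving out control replicate 3 gave 4. Over all genes the count moved from 1193 to between 48 and 2860. CPM values here are normalized by the TMM method, and changes are PCBP1-OE over control.

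**Figure D1:**
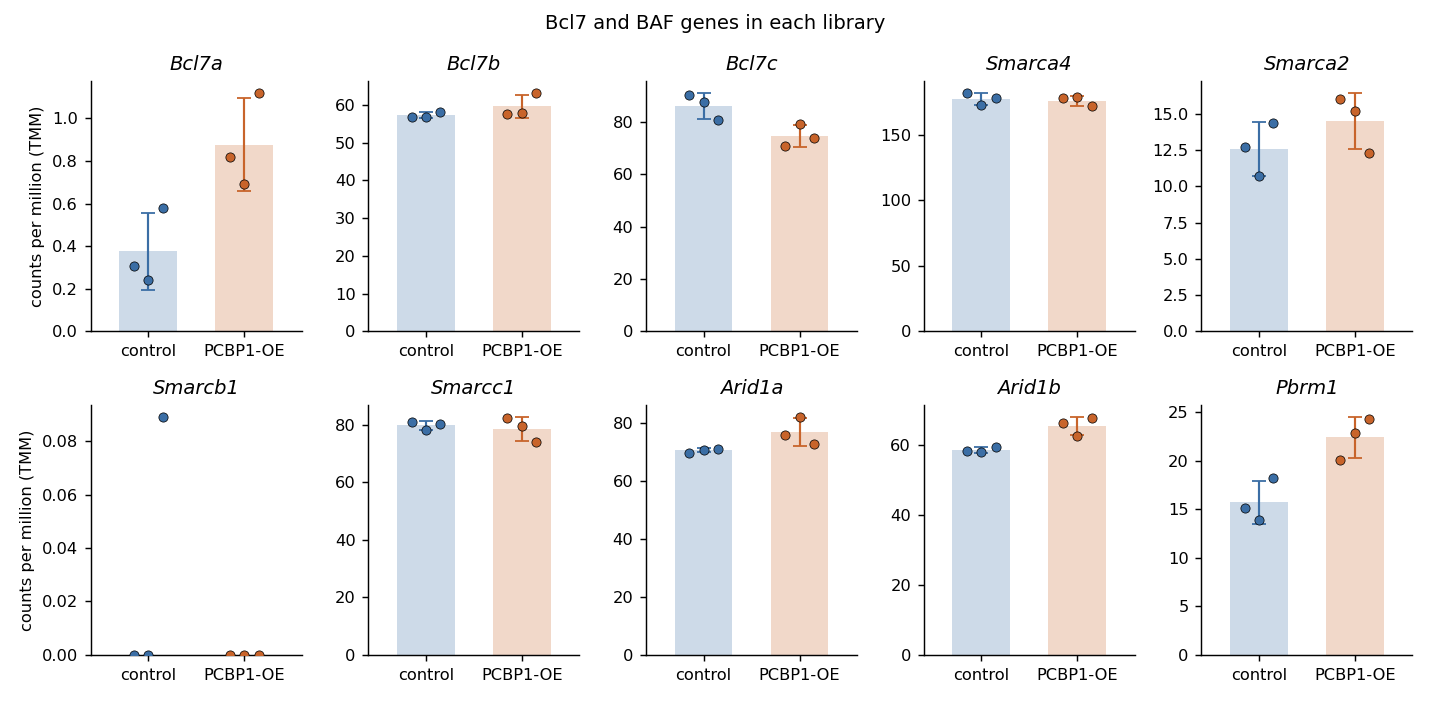
Normalized level (CPM, y axis from 0) of each member in the 3 control (blue) and 3 PCBP1-OE (orange) libraries; points are libraries, bars group means and error bars SD, and Smarcb1 has points only. Pbrm1 runs from 13.9 to 18.2 CPM with the control plasmid and from 20.1 to 24.3 CPM under overexpression, while Smarca4 stays between 172 and 182 CPM in all 6 libraries.

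The Bcl7 genes differed widely in counts, and of the 3 only Bcl7c was called. Bcl7a (ENSRNOG00000056017, chromosome 12) had 6, 5 and 13 counts with the control plasmid and 18, 14 and 22 under overexpression. These are 0.306, 0.240 and 0.580 CPM with the control plasmid and 0.817, 0.694 and 1.12 CPM under overexpression. Every PCBP1-OE library lay above every control, with control replicate 3 nearest to the PCBP1-OE libraries. All PCBP1-OE libraries reached the filter's minimum count of 10, but of the controls only replicate 3 did. Bcl7a thus entered the test through the group where it was higher, which limits its fold change and p-value. A stricter filter of 1 CPM in 3 libraries left Bcl7a untested. The log2 fold change was 1.19 (SE, the standard error, 0.41, with a 95% interval of 0.30 to 2.08), the largest size among the tested members, with an adjusted p of 0.0808 by edgeR's quasi-likelihood test. It passed without control replicate 3 (adjusted p = 0.0235) and with edgeR's exact test, in 2 of 12 alternatives that gave an adjusted p, and its log2 fold change stayed between 0.96 and 1.66. The paper describes Bcl7a as up-regulated, with RT-qPCR beside its sequencing. The main fit here had the same direction but did not call Bcl7a.

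Bcl7b (ENSRNOG00000032705, chromosome 12) had 56.9, 56.7 and 58.2 CPM with the control plasmid and 57.7, 58.0 and 63.2 CPM under overexpression. The groups overlapped, and the log2 fold change was 0.057 with a 95% interval of -0.057 to 0.17 (adjusted p = 0.517, edgeR). Bcl7c (ENSRNOG00000018916, chromosome 1) had 90.2, 87.4 and 80.5 CPM with the control plasmid and 70.9, 79.1 and 73.8 CPM under overexpression. All controls were above all PCBP1-OE libraries, with control replicate 3 and PCBP1-OE replicate 2 only a little apart. Its log2 fold change was -0.21 (SE 0.056, edgeR adjusted p = 0.0404). With 1 library left out it passed only without control replicate 3 (0.00365) and was otherwise at 0.0644 to 0.168, and with upper-quartile scaling it was at 0.0562.

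The make-up of the family was also compared within each library, which needs no scaling between libraries. Of the counts on the 3 Bcl7 genes, Bcl7a held 0.208%, 0.166% and 0.416% with the control plasmid and 0.631%, 0.504% and 0.813% under overexpression. The group means were 0.263% ± 0.134 and 0.649% ± 0.156 (SD, n = 3 each). The PCBP1-OE libraries all lay above the controls, but the exact 95% Clopper-Pearson interval of control replicate 3, 0.222% to 0.710%, overlapped that of each PCBP1-OE library, the lowest of which was 0.276% to 0.844%. These intervals cover counting error only. The two-sided exact permutation test gave p = 0.10, the smallest that 3 against 3 allow, and an adjusted p of 0.40 over the 4 shares compared. Gene length is not removed from the shares, so they do not rank the 3 genes by transcript number.

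**Figure D2:**
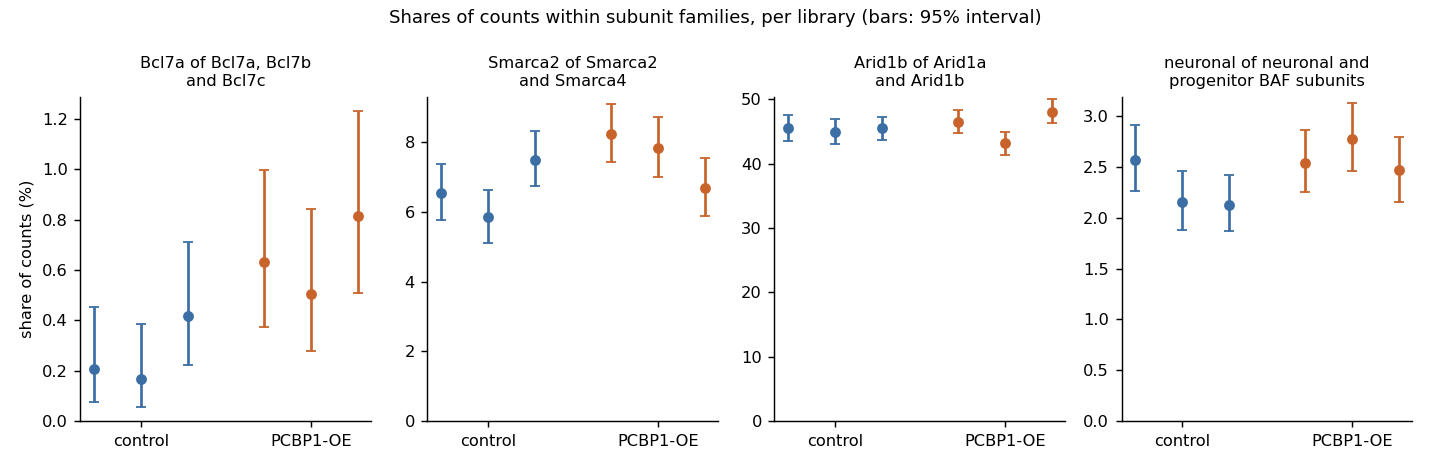
Share of counts (%, y axis from 0) of 1 part of a subunit family in each control (blue) and PCBP1-OE (orange) library, replicates 1 to 3 from left to right, with exact 95% intervals for counting error as bars. The Bcl7a shares, 0.166% to 0.416% with the control plasmid and 0.504% to 0.813% under overexpression, do not overlap, and the other 3 shares do.

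Of the ATPases, the engines of the complex, neither passed the test. Smarca4 (ENSRNOG00000009271, chromosome 8) had 182, 173 and 178 CPM with the control plasmid and 178, 179 and 172 CPM under overexpression. Its log2 fold change was -0.0098, with a 95% interval of -0.10 to 0.084, and the groups overlapped. Smarca2 (ENSRNOG00000011931, chromosome 1) had 12.7, 10.7 and 14.4 CPM with the control plasmid and 16, 15.2 and 12.3 CPM under overexpression. PCBP1-OE replicate 3 lay among the controls, and the log2 fold change was 0.20 (SE 0.13, edgeR adjusted p = 0.333). It depended on single libraries, at 0.10 without control replicate 2, 0.12 without PCBP1-OE replicate 1, and 0.31 without control replicate 3 or PCBP1-OE replicate 3. Smarca2 took 6.54%, 5.84% and 7.5% of the counts of both ATPases with the control plasmid and 8.24%, 7.84% and 6.68% under overexpression. The group means were 6.63% ± 0.831 and 7.59% ± 0.811 (SD, n = 3 each). Their difference of 0.959 percentage points had p = 0.200 in the exact permutation test, and it was 0.565 without control replicate 2 and 0.631 without PCBP1-OE replicate 1.

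Among the core scaffold subunits, Smarcc1 (BAF155, ENSRNOG00000020804, chromosome 8) had 80.8, 78.1 and 80.4 CPM with the control plasmid and 82.2, 79.6 and 73.9 CPM under overexpression. The groups overlapped, and the 95% interval of its log2 fold change ran from -0.13 to 0.086. Smarcb1 (ENSRNOG00000028302, chromosome 20), the SNF5 subunit found in canonical BAF and PBAF, is listed at 0 counts in 5 libraries and at 2 counts in control replicate 3. A count of 0 allows up to 3 counts in a library, and no change in Smarcb1 could be resolved from these counts. The authors counted uniquely mapped reads only, and whether reads of Smarcb1 were lost in the alignment or the counting was not tested, so the listed 0 is not read as absence of the RNA.

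Arid1a and Arid1b encode the large DNA-binding subunits that exclude each other in canonical BAF. Arid1a (ENSRNOG00000006137, chromosome 5) had 69.9, 70.8 and 71.2 CPM with the control plasmid and 76.1, 82.3 and 72.8 CPM under overexpression. The groups did not overlap, but the nearest libraries, control replicate 3 and PCBP1-OE replicate 3, were close, and the fitted difference, 0.13 on the log2 scale with a standard error of 0.052, had an adjusted p of 0.133. Without PCBP1-OE replicate 2 the log2 fold change of Arid1a was 0.077. Arid1b (ENSRNOG00000017030, chromosome 1) had 58.3, 57.9 and 59.4 CPM with the control plasmid and 66.2, 62.5 and 67.6 CPM under overexpression. All PCBP1-OE libraries lay above the controls. The fitted difference was 0.16 on the log2 scale (standard error 0.050), and edgeR put its adjusted p at 0.0584. It passed without control replicate 3 (0.0344), with edgeR's exact test and with upper-quartile scaling, and not in the other 11 of 14 alternatives. The Arid1b share of the counts of both genes was 45.5%, 45.0% and 45.5% with the control plasmid and 46.5%, 43.2% and 48.1% under overexpression. The group means of 45.3% ± 0.276 and 46.0% ± 2.53 (SD, n = 3 each) did not differ beyond the spread, with p = 0.700 in the exact permutation test, and the difference of 0.623 percentage points was 0.338, 2.0 and -0.474 without PCBP1-OE replicates 1, 2 and 3.

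Pbrm1 (ENSRNOG00000028227, chromosome 16) had 297, 291 and 408 counts with the control plasmid and 442, 463 and 476 under overexpression. These are 15.1, 13.9 and 18.2 CPM with the control plasmid and 20.1, 22.9 and 24.3 CPM under overexpression. Every PCBP1-OE library was above every control, and control replicate 3 was again the control nearest to them. The log2 fold change was 0.51 (SE 0.11, 95% interval 0.27 to 0.74) and the adjusted p 0.0186 by edgeR's quasi-likelihood test. Pbrm1 kept its direction in all 14 alternatives and passed in 9. Leaving out 1 library, it passed without control replicate 3 (adjusted p = 7.4e-04) or PCBP1-OE replicate 1 (0.0438), and not without control replicates 1 (0.0765) or 2 (0.111) or PCBP1-OE replicates 2 (0.0800) or 3 (0.0526).

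**Figure D3:**
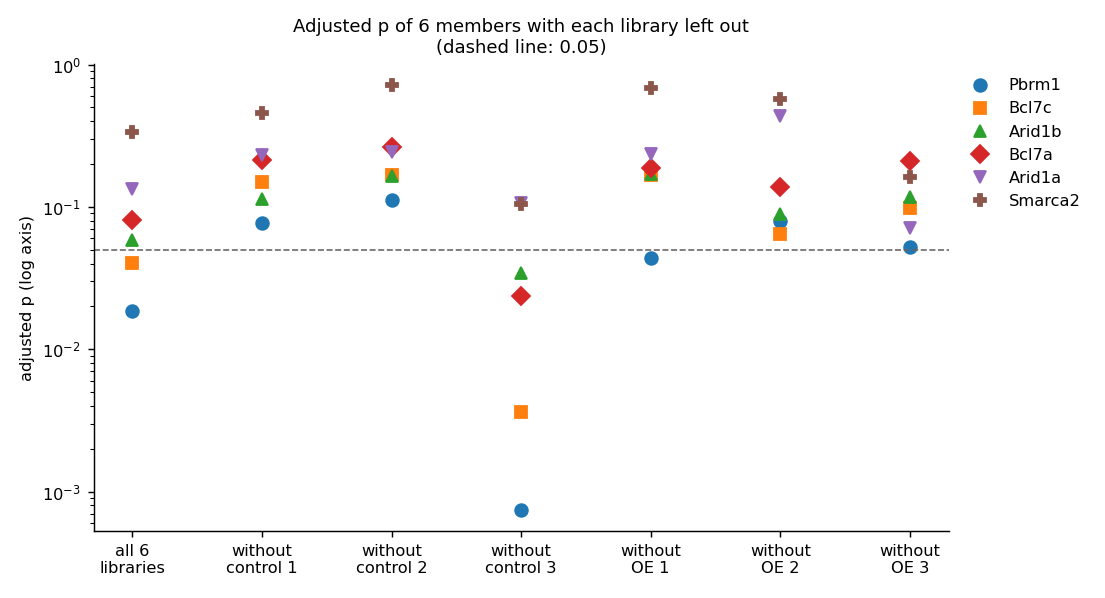
Adjusted p (y axis, log scale) of 6 members with all 6 libraries and with each library left out in turn (x axis); the dashed line is 0.05. Without control replicate 3 Pbrm1, Bcl7c, Bcl7a and Arid1b lie under the line, and without PCBP1-OE replicate 1 only Pbrm1 does. Without control replicate 1 or 2, or PCBP1-OE replicate 2 or 3, none does. Without control replicate 2 Pbrm1 is lowest, at 0.111 by edgeR.

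The other subunits of the complexes were read from a list of 18 genes, of which 16 were tested. Of these, 2 rose, 1 fell and 13 did not pass, so that 18.8% of the 16 were called, beside 9.45% of all tested genes (4.45% higher, 5.0% lower). The median log2 fold change was -0.048, beside 0.0029 for all tested genes. Arid2, the ARID subunit particular to PBAF, rose with a log2 fold change of 0.53 (SE 0.10, edgeR adjusted p = 0.0133). It had 10, 9.20 and 10.2 CPM with the control plasmid and 13.6, 15.2 and 13.7 CPM under overexpression. All PCBP1-OE libraries lay above the controls, and Arid2 passed in 4 of 6 fits with 1 library left out, not without control replicate 2 (0.0789) or PCBP1-OE replicate 2 (0.0675). Bicral, listed as Gltscr1l and a subunit of noncanonical BAF, rose by 0.59 on the log2 scale (SE 0.13, edgeR adjusted p = 0.0221). Its levels were 5.76, 5.70 and 6.87 CPM with the control plasmid and 9.94, 9.42 and 8.17 CPM under overexpression. The groups did not overlap, and Bicral passed in 2 of 6 fits with 1 library left out, those lacking control replicate 3 (0.00399) and PCBP1-OE replicate 3 (0.0360).

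Smarcd3 (BAF60c), 1 of 3 alternative BAF60 subunits, fell, with 75.3, 78.3 and 77.3 CPM with the control plasmid and 65.4, 65.4 and 65.8 CPM under overexpression. Its log2 fold change was -0.23 (SE 0.045, edgeR adjusted p = 0.0125), and both groups were tight. Without control replicate 2 the adjusted p was 0.0697, without PCBP1-OE replicates 1 and 2 it was 0.0513 and 0.0567, and in the other 3 such fits Smarcd3 passed. Its alternatives Smarcd1 and Smarcd2 had log2 fold changes of -0.097 and -0.042 (adjusted p = 0.206 and 0.586, edgeR). Of the 4 subunits that set PBAF apart here, Pbrm1 and Arid2 rose, while Brd7, at -0.079 (95% interval -0.17 to 0.0094), and Phf10, at -0.095 (-0.22 to 0.026), did not pass. Of the 3 called subunits in the list, 0 were called when control replicate 2 or PCBP1-OE replicate 2 was left out, and 1 when PCBP1-OE replicate 1 was.

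**Figure D4:**
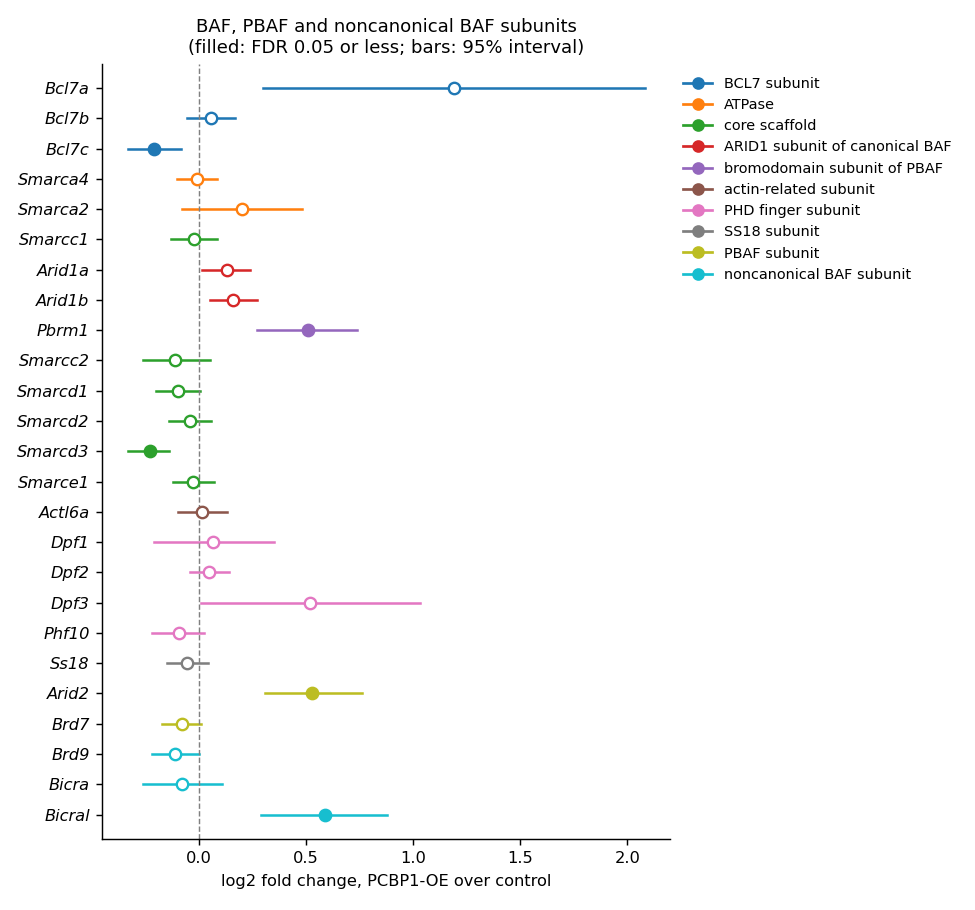
Log2 fold change in PCBP1-OE over control (x axis) of the 25 tested subunits, members and other subunits together, with 95% intervals as bars, colors for the role of the subunit and filled points for an FDR of 0.05 or less. Filled points above 0 are Pbrm1, Arid2 and Bicral, those below 0 are Bcl7c and Smarcd3, and Bcl7a has the widest interval, 0.30 to 2.08.

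Some subunits are exchanged as neural progenitors become neurons, with Actl6b, Dpf1, Dpf3 and Ss18l1 in place of Actl6a, Phf10, Dpf2 and Ss18. The neuronal subunits held 2.57%, 2.16% and 2.13% of the counts of these 8 genes with the control plasmid and 2.54%, 2.78% and 2.47% under overexpression. The means were 2.29% ± 0.247 and 2.60% ± 0.162 (SD, n = 3 each), p was 0.300 in the exact permutation test, and control replicate 1 lay among the PCBP1-OE libraries. Dpf1 made up most of the neuronal counts, with 168 to 203 counts per library. Dpf3 had 28, 33 and 39 counts with the control plasmid and 55, 53 and 33 under overexpression, with a log2 fold change of 0.52 (SE 0.24, edgeR adjusted p = 0.168). Ss18l1 (CREST) had 7, 6 and 3 counts with the control plasmid and 22, 13 and 6 under overexpression, and Actl6b at most 3 counts in any library, so neither was tested. The progenitor subunits Actl6a, Phf10, Dpf2 and Ss18 had log2 fold changes of 0.015, -0.095, 0.049 and -0.054, and none passed.

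For comparison, other families of ATP-dependent remodelers were read from a list of 43 genes, of which 40 were tested. Of these, 10 rose and 2 fell, 30.0% of the 40, beside 9.45% of all tested genes (4.45% higher, 5.0% lower). The median log2 fold change was 0.092, beside 0.0029 for all tested genes. Among ISWI genes, which space nucleosomes, the ATPase Smarca5 rose by 0.17 on the log2 scale. Of the other ISWI subunits, Baz1a, Baz1b, Bptf and Rsf1 rose by 0.44, 0.18, 0.29 and 0.54. Among CHD and NuRD genes, Chd9 rose by 0.74 (SE 0.12, edgeR adjusted p = 0.00835), Chd1 by 0.34 and Gatad2b by 0.34, while the NuRD subunit Mbd3 had a log2 fold change of -0.20. Ino80, the ATPase of the INO80 complex, rose by 0.38 and Atrx by 0.28, and Ruvbl2, an AAA-type helicase of the INO80 and SRCAP complexes, had a log2 fold change of -0.19. For these 12 genes edgeR gave adjusted p-values between 0.00835 and 0.0494. Chd9, with 11.9, 8.43 and 9.59 CPM with the control plasmid and 16.1, 16.4 and 17.3 CPM under overexpression, passed in 5 of 6 fits with 1 library left out and was at 0.0593 without control replicate 2. Leaving out control replicate 1, 2 or 3 turned the count of 12 into 5, 0 or 14, and leaving out PCBP1-OE replicate 1, 2 or 3 turned it into 1, 1 or 5.

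**Figure D5:**
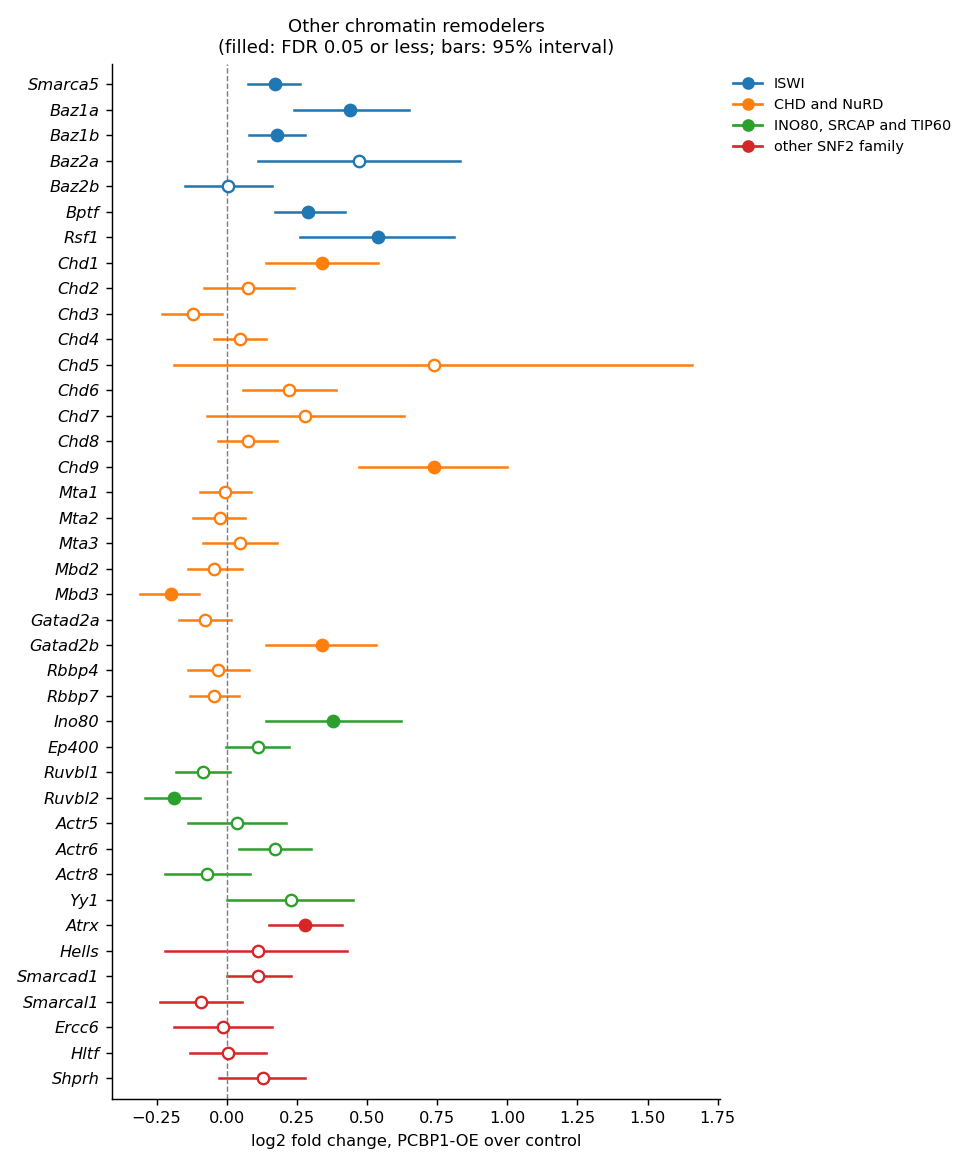
Log2 fold change in PCBP1-OE over control (x axis) of the 40 tested genes of other chromatin remodelers, with 95% intervals as bars, colors for the family and filled points for an FDR of 0.05 or less. Of the 12 filled points 10 lie above 0, with Chd9 farthest at 0.74, and Mbd3 and Ruvbl2 lie below it.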

How the data were processed

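RNA-seq libraries of 3 control and 3 PCBP1-OE samples were matched to their groups by title. Per the paper's methods, the authors trimmed reads with FASTX-Toolkit, aligned them to Rnor_6.0 with TopHat2 and deposited raw counts of uniquely mapped reads per gene. The submitters' processing notes name GRCh38 as the build, although the gene identifiers are of the rat. The sources used here do not name the program that counted reads or say if strand was used, which leaves values of overlapping or duplicated genes uncertain. Only the chromosome of each gene is in the table.

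The 20609 genes were filtered by filterByExpr with a minimum count of 10 and a minimum total count of 15, which left out 7985. The other 12624 genes were fitted with edgeR 4.0.16 in R 4.3.3 (quasi-likelihood test, TMM scaling). Adjusted p-values are by Benjamini-Hochberg over the tested genes. Standard errors are the log2 fold change over the root of F, and 95% intervals use the t distribution of the same fit. Shares were tested by exact permutation in Python 3.11.15 with scipy 1.17.1 for intervals. The fit was also run on simulated counts, whose spread followed the mean level of a gene alone. Such counts hold no deviant library, so that run does not bear on how calls change when a library is left out. The members and lists were chosen with earlier results of these data known, and Bcl7a and Ss18l1 were known from the paper and its supplement. Named are all members, the called genes of the other lists and the genes of the shares, while Smarcd1, Smarcd2 and Brd7 were named after their values were seen, as partners of called subunits. Symbols matched 42 of 43 remodelers, and all 18 other BAF subunits with a synonym for 2.

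The fit was repeated with other scaling (RLE, upper quartile), with no filter or a minimum of 1 CPM in 3 libraries, by DESeq2 1.42.0, limma-voom (limma 3.58.1) and edgeR's exact test, with a block for the replicate number, and leaving out single libraries. A robust prior was added after seeing the data.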

Additional observations from a re-analysis of the deposited data

How the results depend on the processing

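For 36 named genes the alternatives gave 502 log2 fold changes, of which 494 had the direction reported and 8 the other, the latter in Smarca4, Smarcc1, Actl6a and Th, none of which was called. A call was lost in 86 and gained in 8. RLE scaling, upper-quartile scaling, no filter, the stricter filter, the robust prior, DESeq2 and limma-voom gave 2 called members each, although under upper-quartile scaling these were Pbrm1 and Arid1b, both higher. That scaling split the calls over all genes into 655 higher and 427 lower, against 562 and 631, and moved the median of all genes from 0.0029 to 0.023. Without a filter 2090 of 20609 genes were called, and edgeR's exact test called 4 members, Pbrm1, Bcl7c, Bcl7a and Arid1b. With 1 library left out, called members ranged from 0 to 4, other BAF subunits from 0 to 3, other remodelers from 0 to 14 and all genes from 48 to 2860. The Arid1b share had a difference of -0.474 percentage points without PCBP1-OE replicate 3, against 0.623, and up to 2.0 without PCBP1-OE replicate 2. Pooling counts within groups moved no share beyond the spread.

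Same-numbered libraries did not deviate together (correlations of -0.0776, -0.0514 and -0.0428 for replicates 1, 2 and 3), so the numbers were not taken as pairs. With the replicate number as a block, 16 genes were called in all (2730 at an unadjusted p under 0.05), and 0 members, 0 other BAF subunits and 0 other remodelers by edgeR (4, 3 and 15 at an unadjusted p under 0.05). With the replicate block the shares kept their differences of 0.386, 0.959, 0.623 and 0.308 percentage points, at p of 0.25, 0.50, 0.750 and 0.50.

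Low counts limit Bcl7a, Ss18l1, Actl6b and Smarcb1, which had at most 22 counts in a library. For Smarcb1, whether depth or a loss of reads lay behind the low counts was not tested.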
